A study of Mus musculus with 7 samples.

Results

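The mouse Hox cluster B genes were followed over 6 days of retinoic acid treatment of CCE, a feeder-free mouse embryonic stem cell line. The members were the symbols starting with Hoxb in the expression table, and for a symbol with more than 1 transcript the one with the highest mean was taken. This gave 10 genes of 12071 symbols, Hoxb1 to Hoxb9 and Hoxb13, from 11 listed transcripts. On days 1 to 6 the cells received 5 µM retinoic acid and no leukemia inhibitory factor (LIF), the cytokine that keeps mouse stem cells undifferentiated. On day 0 they were in medium with LIF and are labelled as treated with DMSO, the vehicle. Each of the 7 days had 1 library of ribosomal-RNA-depleted total RNA, so no day had a replicate and single-day differences carry no test. Effects of retinoic acid, of LIF withdrawal and of days in culture cannot be told apart in this design, and separate cultures per day are not stated. In such bulk samples more expressing cells and more RNA per cell cannot be told apart either.

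Hox genes encode homeodomain transcription factors that give cells their position along the head-to-tail axis. They lie in clusters in which the gene order along the chromosome matches the order of expression along the body, and the genes at the paralog 1 end respond first to retinoic acid. Retinoic acid binds nuclear receptors that sit on retinoic acid response elements, several of which flank the cluster B genes, and Polycomb proteins keep the clusters silent in stem cells. The homeodomain proteins bind DNA with TALE-class partners of the Pbx and Meis families.

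The 10 genes lay on chromosome 11 of mm9, all on the plus strand, from Hoxb13 (96055674 to 96057913) to Hoxb1 (96227071 to 96229567), with positions counted from 1. Between them, in that order, started Hoxb9 (96132643), Hoxb8 (96143218), Hoxb7 (96147959), Hoxb6 (96160484), Hoxb5 (96164825), Hoxb4 (96180052), Hoxb3 (96184439) and Hoxb2 (96212945). The gap between Hoxb13 and Hoxb9 was 74729 nt, and the other gaps between neighbours ran from 1319 nt (Hoxb8 to Hoxb7) to 12616 nt (Hoxb5 to Hoxb4), so no chosen transcript overlapped another. Transcript lengths ran from 1271 nt for Hoxb7 to 3394 nt for Hoxb3. In the GENCODE annotation of GRCm38 the genes Hoxb2, Hoxb3, Hoxb5 and Hoxb6 are overlapped by opposite-strand genes (Hoxb3os, Gm11536 and Hoxb5os). The library kit keeps strand, but the counting's strand setting is unknown, so reads of these 4 genes and of their antisense partners cannot be told apart.

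RefSeq promoter sequence (build GRCm38.p6) matched 3 of the 10 genes, Hoxb1, Hoxb4 and Hoxb8. These are the 3 genes with an entry in that table, and their courses are given below. Each line holds the 250 bases before the start annotated in that build, plus strand, and capitals mark the motifs searched on both strands. From mm9 to that build the Hoxb4 start moved by another offset than the Hoxb1 and Hoxb8 starts. Its motif positions may therefore not be relative to the Hoxb4 start given above.
Hoxb1 promoter, chr11:96365508-96365757: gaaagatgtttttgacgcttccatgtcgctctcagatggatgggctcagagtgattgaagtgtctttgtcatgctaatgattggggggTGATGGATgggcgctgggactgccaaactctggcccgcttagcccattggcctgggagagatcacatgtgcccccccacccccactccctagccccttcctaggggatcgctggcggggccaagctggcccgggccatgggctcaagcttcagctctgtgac
Hoxb4 promoter, chr11:96318017-96318266: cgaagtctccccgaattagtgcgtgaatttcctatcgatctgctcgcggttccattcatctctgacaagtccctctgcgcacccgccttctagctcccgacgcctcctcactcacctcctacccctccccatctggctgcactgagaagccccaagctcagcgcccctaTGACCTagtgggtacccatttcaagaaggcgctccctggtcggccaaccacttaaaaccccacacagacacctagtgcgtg
Hoxb8 promoter, chr11:96281655-96281904: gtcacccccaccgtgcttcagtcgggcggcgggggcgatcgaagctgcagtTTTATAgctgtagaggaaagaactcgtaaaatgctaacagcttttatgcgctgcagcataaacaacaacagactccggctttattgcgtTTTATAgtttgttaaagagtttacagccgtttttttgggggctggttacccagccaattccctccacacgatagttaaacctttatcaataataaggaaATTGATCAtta

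The Hoxb1 window held 1 match to TGATNNAT, the form bound by Pbx with a Hox protein, from -162 to -155 relative to the start, and the Hoxb8 window held 1 on the minus strand from -11 to -4. This motif was in 7.68% of the 32851 promoter windows of this length. The Hoxb4 window held 1 match to the retinoic acid receptor core motif AGGTCA, on the minus strand from -81 to -76, a motif in 14% of windows. Hoxb8 held TATAAA in 2 places, both on the minus strand, and 12.4% of windows held it. A direct repeat of AGGTCA spaced by 2 or by 5 bases was not among the letters of these 3 windows, and each spacing was in 3 of the 32851.

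The deposited values are log2 scaled reads per transcript, and undoing the log and the scaling gave back whole read counts. Recovered reads per library lay between 7194325 (day 6) and 17923852 (day 4), and day 0 had 10280938. The lowest value of a library was taken as 1 read, which may stand for no read. Day 6 stood apart: over all symbols the median day 6 minus day 0 difference was -0.71 on the log2 scale, against 0.13 for day 5 minus day 0, and long transcripts were the lowest. The labelled stem cell state of day 0 was met by its markers, with Pou5f1 at 14.40 and Nanog at 11.46 on the log2 scale. The log2 of the summed level of the stem cell markers (6 of 6 listed) ran from 9.05 (day 6) to 15.93 (day 0). That of the extraembryonic endoderm markers (6 of 6) ran from 9.26 (day 0) to 14.68 (day 3). The neural progenitor markers (4 of 4) lay between 8.39 (day 6) and 11.14 (day 3). Of these 4, Nes was highest on day 3 (10.77), Sox1 (8.86) and Sox3 (9.66) on day 1 and Pax6 (9.60) on day 2. The fibroblast markers (4 of 4) lay between 8.66 (day 1) and 15.94 (day 6). The fibroblast markers did not move together: on day 6 Acta2 (15.28) and Tagln (14.44) were at their highest. Col1a1 (8.16) and Col3a1 (9.18) were then below their day 5 levels of 12.47 and 13.05. The paraxial mesoderm markers (2 of 3) lay between 6.09 (day 5) and 11.07 (day 1). Of these 2, Tcf15 was highest on day 1 (11.02) and Meox1 on day 2 (7.84). The part of such cell types in the Hox values below was not tested.

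All 10 genes stood far above day 0 on day 1, from near silence. The cluster had 3685 reads in all on day 1, or 321 RPM (the usual library-scaled unit, 95% Poisson interval 311 to 332), against 36 reads on day 0, or 3.50 RPM (2.45 to 4.85). Each of the 10 was at least 4-fold higher on day 1, where 2.22% of all symbols were. With quantile normalization or with 5 reads added it was 9, without Hoxb13. All 10 also passed that fold on days 2, 3 and 4, where 8.43%, 9.6% and 11.4% of all symbols did. On day 1 the median log2 difference was 7.18 over the 10 genes, against 0.11 over all symbols. Intervals on a difference are exact binomial (Clopper-Pearson) at 95% and leave out all spread between cultures; reads carried no molecular identifiers, so even the counting error is a lower limit.

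Among the paralog 1 to 4 genes, which pattern the hindbrain, the differences were widest in Hoxb2 and Hoxb1. Hoxb1, needed for the identity of facial motor neurons in the hindbrain, had 534 reads on day 1, against 1 read on day 0 (log2 difference 8.90, interval 6.42 to 14.21). Hoxb2, a target of Hoxb1 and of the segmentation factor Egr2, had 672 reads on day 1, against 1 on day 0 (9.23, interval 6.75 to 14.54). Hoxb4, which promotes blood stem cell expansion when overexpressed, had 400 reads on day 1, against 2 on day 0 (7.49, interval 5.62 to 10.54). Hoxb3, a gene of the caudal hindbrain, had 226 reads on day 1, against 9 on day 0 (4.49, interval 3.54 to 5.64). The Hoxb1, Hoxb2 and Hoxb4 differences rest on day 0 counts of 1 or 2 reads, so their size is known only within the wide intervals given.

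The trunk genes Hoxb5 to Hoxb8 lay in the same range, with Hoxb7 the lowest of them. Hoxb5, a gene of neural crest and gut innervation, had 311 reads on day 1, against 1 on day 0 (8.12, interval 5.63 to 13.43). Hoxb6, expressed in lateral plate mesoderm, had 398 reads on day 1, against 1 on day 0 (8.48, interval 5.99 to 13.79). Hoxb8, whose loss causes compulsive grooming in mice, had 781 reads on day 1, the most of the cluster, against 6 on day 0 (6.87, interval 5.74 to 8.32). Hoxb7, a gene active in the ureteric bud of the kidney, had 51 reads on day 1, against 1 on day 0 (5.51, interval 2.97 to 10.85). Of the posterior genes, Hoxb13 alone had the smallest difference whether or not 5 reads were added. Hoxb9 was level with Hoxb3 (4.49, interval 3.54 to 5.64), and these 2 genes had the most reads on day 0. With 5 reads added, Hoxb3 and Hoxb7 stood below Hoxb9. Hoxb9, a thoracic rib patterning gene, had 293 reads on day 1, against 12 on day 0 (4.45, interval 3.63 to 5.42). Hoxb13, a gene of the tail bud and prostate, had 19 reads on day 1, against 2 on day 0 (3.09, interval 1.04 to 6.24). With all 10 intervals above 0, the day 1 and day 0 libraries were apart for every member by more than counting error.

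**Figure D1:**
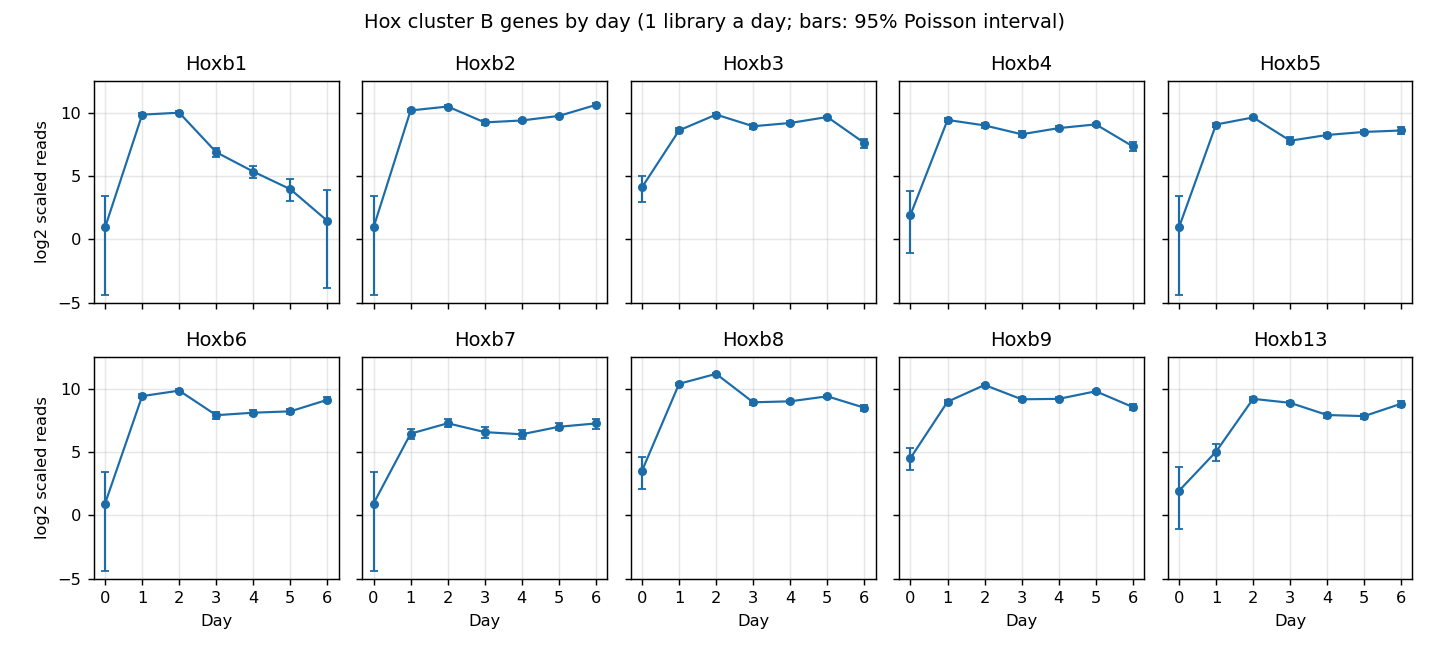
Log2 scaled reads (y axis) of the 10 Hox cluster B genes on days 0 to 6 (x axis), 1 library a day, with 95% Poisson intervals on the read count as bars. All genes leave their day 0 level by day 1, Hoxb13 mainly by day 2, and Hoxb1 returns to 1 read on day 6 while the other 9 stay up.

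**Figure D2:**
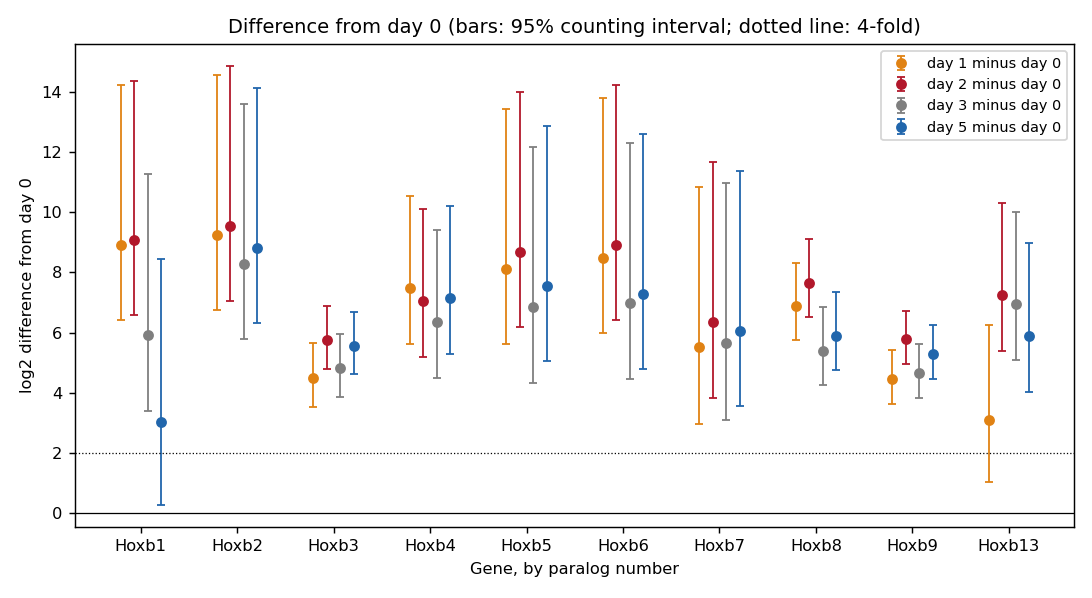
Log2 difference from day 0 (y axis) on days 1, 2, 3 and 5 for each gene in paralog order (x axis), with 95% counting intervals. The points lie above the 4-fold line, and the widest bars belong to the genes with 1 read on day 0.

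Day 2 was the high point of the cluster. Its 5638 reads came to 503 RPM (interval 490 to 517), and 8 of the 10 genes had their highest value of the 7 days then as deposited; Hoxb4 was highest on day 1 and Hoxb2 on day 6. This order of days 2 and 6 depended on the scaling of day 6. With each library centred on its median, Hoxb13, Hoxb7, Hoxb6 and Hoxb5 were higher on day 6 than on day 2, and with quantile normalization Hoxb13, Hoxb7 and Hoxb6 were. With 5 reads added Hoxb7 was too. With the length correction Hoxb2 stood 9.32 above day 0 on day 6 and 9.60 above it on day 2. The step from day 1 was largest in Hoxb13, with 335 reads on day 2 against 19 on day 1, a log2 difference of 4.17 (interval 3.51 to 4.92). Hoxb9 (1.32, interval 1.12 to 1.52) and Hoxb3 (1.25, interval 1.02 to 1.48) were also at least 2-fold higher on day 2 than on day 1, as were 11.2% of all symbols. Hoxb4 alone was lower on day 2, by a log2 difference of -0.43 (interval -0.65 to -0.21), and the Hoxb1 interval included 0 (-0.01 to 0.33).

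On day 3 all 10 genes were below day 2, each with an interval below 0. The cluster had 183 RPM on day 3 (interval 175 to 192). The median log2 difference of day 3 minus day 2 was -1.19 over the 10 genes, against -0.10 over all symbols, of which 61.7% were lower. Hoxb1, Hoxb8, Hoxb6, Hoxb5, Hoxb2 and Hoxb9 were at least 2-fold lower, 6 of 10, where 4.31% of all symbols were. Hoxb1 had 59 reads on day 3, against 582 on day 2 (log2 -3.12, interval -3.54 to -2.74). Hoxb8 had 245 reads on day 3, against 1315 on day 2 (-2.25, interval -2.45 to -2.05). The difference closest to 0 was that of Hoxb13, with 238 reads on day 3 against 335 on day 2 (-0.32, interval -0.56 to -0.07). The Hox cluster A genes were lower as well, 8 genes with differences from -0.88 to -0.30 and a median of -0.57. After the length correction of the libraries the 10 differences still lay below 0, from -3.02 to -0.21.

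Hoxb1 was the gene that did not stay on. It had 1, 534, 582, 59, 37, 13 and 1 reads on days 0 to 6, and its log2 level was 9.84 on day 1, 6.88 by day 3 and 3.96 by day 5. Day 6, at 1 read, did not differ from day 0, also at 1 read, within counting error (log2 difference interval -5.78 to 6.81). In the limma line fitted over days 1 to 6 Hoxb1 fell by 1.76 ± 0.17 (SE) log2 units per day (adjusted p = 0.0473), where 0.307% of all symbols were called falling. Counted from the lowest slope, it ranked 4 of 12071 symbols. Over days 1 to 5, without the sparse day 6 library, it fell by 1.64 ± 0.19 per day (limma adjusted p = 0.0096), where 13.6% of symbols were called falling. The fit without days 0 and 6 was chosen after seeing the data. The other 9 genes were not called on either span, with slopes over days 1 to 6 from -0.42 in Hoxb8 (adjusted p = 0.203) to 0.40 in Hoxb13 (adjusted p = 0.409). The difference between the slope of Hoxb1 and those of the others was not tested. Days stand in for replicates in these fits, so the SE holds departures from a line as well as noise.

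The 8 genes Hoxb2 to Hoxb9 were lower on day 3 than on day 2 and higher on day 5 than on day 3. Hoxb7 was lower still on day 4 (6.41, against 6.58 on day 3). The Hoxb6 steps to days 4 and 5 had intervals that included 0 (-0.12 to 0.52 and -0.15 to 0.37). Hoxb2 was at 0.94, 10.18, 10.49, 9.23, 9.39, 9.75 and 10.61 on days 0 to 6. Hoxb3 was at 4.11, 8.60, 9.85, 8.93, 9.19, 9.66 and 7.61. Hoxb9 was at 4.53, 8.98, 10.30, 9.17, 9.20, 9.80 and 8.56. All 3 thus stood closer to their day 2 level on day 5 than on day 3.

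The share of the highest level that was present on day 5 differed between genes. Hoxb8 was at 3.53, 10.39, 11.18, 8.93, 9.01, 9.41 and 8.50 on days 0 to 6, and on day 5 it held 29.3% of its day 2 level on the linear scale. Hoxb6 was at 0.94, 9.42, 9.85, 7.91, 8.11, 8.22 and 9.13, with 32.2% of its highest level on day 5. Hoxb5 was at 0.94, 9.07, 9.63, 7.79, 8.24, 8.48 and 8.60, with 45.2% on day 5. Hoxb7 held 82.5%, Hoxb3 87.7%, Hoxb9 70.9% and Hoxb2 54.8% of their highest level on day 5.

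Hoxb4 was at 1.94, 9.43, 9.0, 8.30, 8.78, 9.08 and 7.34 on days 0 to 6, and on day 5 it held 78.5% of its day 1 level. Hoxb7 was at 0.94, 6.46, 7.28, 6.58, 6.41, 7.0 and 7.26, with 48 to 107 reads on days 1 to 6. Hoxb13 ran apart from them, at 1.94, 5.03, 9.21, 8.89, 7.93, 7.84 and 8.82, high from day 2 and lower on days 4 and 5.

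In the daily steps between days 3 and 5 no gene was 2-fold higher, and Hoxb1 was the 1 gene at least 2-fold lower, by -1.53 (interval -2.16 to -0.91) on day 4 and -1.39 (interval -2.43 to -0.45) on day 5, as were 1.27% and 0.464% of all symbols. Centred on library medians, Hoxb13 on day 4 (-0.96 as deposited) passed that fold too. On day 4 the log2 difference from day 3 had an interval above 0 in 3 genes, Hoxb3, Hoxb4 and Hoxb5, and below 0 in Hoxb1 and Hoxb13. On day 5 against day 4 it was above 0 in 6 genes, led by Hoxb9 (0.60, interval 0.44 to 0.76) and Hoxb7 (0.59, interval 0.16 to 1.03). At least 2-fold higher on these steps were 1.91% and 1.28% of all symbols. On day 5 all 10 genes were still at least 4-fold above day 0, where 12.7% of symbols were. Hoxb1 was there with 13 reads on day 5 against 1 on day 0 (3.02, interval 0.28 to 8.43), and it fell short of 4-fold with quantile normalization or with 5 reads added, which left 9. The cluster total on day 5 was 244 RPM (interval 236 to 251).

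Day 6 gave values that went with transcript length. Of the 10 genes 5 were higher than on day 5 and 5 lower, and the Spearman rho of the difference with transcript length was -0.77 over the 10 genes, which share both libraries. Hoxb13 (1315 nt) was higher on day 6 by 0.98 (interval 0.67 to 1.29), Hoxb6 (1324 nt) by 0.91 (interval 0.64 to 1.18) and Hoxb2 (1631 nt) by 0.87 (interval 0.71 to 1.03). Hoxb3 (3394 nt) differed by -2.05 (interval -2.43 to -1.70), Hoxb4 (2088 nt) by -1.74 (interval -2.15 to -1.34) and Hoxb9 (2701 nt) by -1.25 (interval -1.52 to -0.98). With Hoxb1, at 1 read on day 6 against 13 on day 5 (-2.50, interval -7.91 to 0.23), these were the 4 genes at least 2-fold lower on day 6, where 51.1% of all symbols were; none of the 10 was 2-fold higher, as 17.4% of symbols were. With median centring or quantile normalization this turned round. Under both 5 genes were at least 2-fold higher, and 1 (median centring) or 0 (quantile) at least 2-fold lower. These scalings move all symbols on day 6. The shares of all symbols past the fold were not counted under them, so the turn cannot be called particular to these genes. After each library was corrected for transcript length the rho was -0.16, and the differences became -0.06 for Hoxb13, -0.12 for Hoxb6, 0.42 for Hoxb2, -0.52 for Hoxb3, -0.28 for Hoxb9, -0.86 for Hoxb7 and -1.47 for Hoxb4. Hoxb4 and Hoxb1 (-2.25) were then still at least 2-fold lower, and Hoxb2 was still higher. Against day 0, 9 of the 10 genes were at least 4-fold higher on day 6, where 9.54% of all symbols were, and the exception was Hoxb1.

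**Figure D3:**
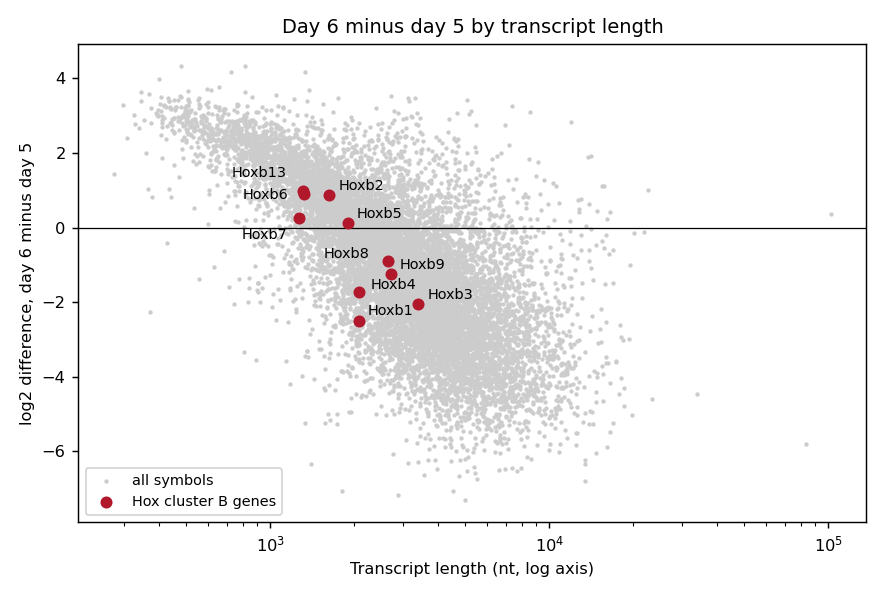
Day 6 minus day 5 log2 difference as deposited (y axis) against transcript length in nucleotides (x axis, log scale), for all symbols in grey and the Hox cluster B genes in red. The short genes Hoxb13, Hoxb6 and Hoxb2 lie between 0.87 and 0.98 and the long gene Hoxb3 at -2.05, within a cloud that slopes down with length.

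The interpolated day of the midpoint went with paralog number in part. The day at which each gene crossed the midpoint between its day 0 and its highest log2 value, read from straight lines between daily values, was 0.50 for Hoxb4, 0.51 for Hoxb1, 0.53 for Hoxb5 and Hoxb6, 0.57 for Hoxb7 and 0.56 for Hoxb8. Hoxb3, at 0.64, had a higher value than its paralog number would place it at. With Hoxb2, Hoxb9 and Hoxb13 included, Spearman rho with paralog number was 0.73 over 10 genes, and 0.63 over the 9 genes without Hoxb13. On the linear scale the crossing fell at day 0.56 for Hoxb1, 0.50 for Hoxb4, 0.86 for Hoxb8 and 1.15 for Hoxb3 (rho 0.68, 10 genes, and 0.57 over the 9 without Hoxb13). Except for Hoxb13, every crossing on the log2 scale lay between the first pair of libraries, where no sample was taken. Such a crossing restates how much of its full rise a gene had made by day 1, and cannot time the rise within that day. Hoxb4 is at 0.50 because its highest day was day 1. In the same way, the share of the highest level already present on day 1 was 5.54% for Hoxb13, 40.1% for Hoxb9 and 42.2% for Hoxb3, against 89.7% for Hoxb1.

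Levels of different genes were compared as RPKM, reads per kilobase of transcript scaled to the recovered reads of the library. On day 0 all 10 lay between 0.0468 for Hoxb1 and 0.432 for Hoxb9, and the intervals of neighbours in that order overlapped. On day 2 Hoxb2 (44.6 RPKM) and Hoxb8 (44.4 RPKM) led with overlapping intervals, and Hoxb6 followed at 35.4 RPKM. Hoxb1 (25.0), Hoxb9 (23.6), Hoxb13 (22.7) and Hoxb5 (21.1 RPKM) came next, each overlapping its neighbour. Hoxb3 (13.8) and Hoxb4 (12.4 RPKM) overlapped, and Hoxb7 was the lowest at 6.18 RPKM.

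By day 5 the order had changed. Hoxb2 led at 26.7 RPKM and stood apart from Hoxb9 at 16.8 RPKM, which stood apart from Hoxb4 at 13.1 RPKM. The levels of Hoxb4, Hoxb8, Hoxb3, Hoxb6, Hoxb5 and Hoxb13 ran from 13.1 to 8.85 RPKM with each pair of neighbours overlapping. Hoxb1 was last at 0.379 RPKM (interval 0.202 to 0.648). As a share of the summed RPKM of the cluster, Hoxb1 made up 0.324% on day 5, against 13.9% on day 1. Hoxb2 made up 22.3% on day 1, 22.8% on day 5 and 38.9% on day 6.

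**Figure D4:**
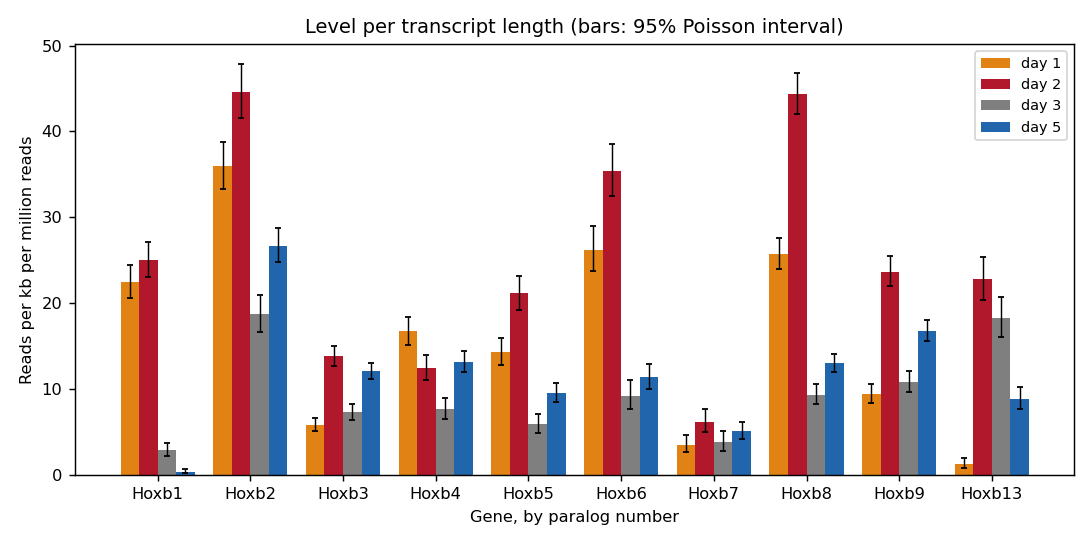
Level of each Hox cluster B gene in RPKM (y axis, linear from 0) on days 1, 2, 3 and 5 (bars), genes by paralog number (x axis), with 95% Poisson intervals as error bars. Hoxb2 and Hoxb8 reach 44.6 and 44.4 RPKM on day 2, and Hoxb1 is at 0.379 RPKM on day 5.

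Fits of a line or curve on day called Hoxb genes at shares near those of all symbols. In the limma line over all 7 libraries and 12071 symbols 0 of the 10 genes had a slope with adjusted p under 0.05, where 7.78% of all symbols did. Of the 10, 1 gene, Hoxb13, had an unadjusted p under 0.05. A slope that is not called does not test whether a line describes the course. Slopes ran from -0.53 log2 units per day in Hoxb1 (adjusted p = 0.583) to 0.97 in Hoxb2 (adjusted p = 0.228). The F-test of a line or curve sets both terms together against no change, so it does not set a curve against a line. It called 4 of the 10, Hoxb13 (adjusted p = 0.0246), Hoxb3 (0.0285), Hoxb9 (0.0397) and Hoxb7 (0.0489), where 40.1% of all symbols were called, a share like that of the members. Leaving out day 4 left 0 calls and leaving out day 5 gave 7, and leaving out day 0, 1, 2 or 3 gave 1 or 2. Over all 12071 symbols the calls moved too, to 477 without day 4 and 8807 without day 5. Without day 0, 1, 2 or 3 the calls over all symbols were 941, 793, 1036 and 955. Over days 0 to 5 the F-test called 5 of 10, where 48% of symbols were called.

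Hoxb3 was the 1 member with a further listed transcript. The longer transcript had 7 reads more on day 0, when it had 9, so the shorter one had 2. From day 1 on the shorter one's count was at least 95.5% of the longer one's, so the choice of transcript moves the day 0 level of Hoxb3 and hardly the later ones.

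The genes around the cluster did not share its day 1 step. Of 26 neighbours on the chosen list 18 were in the table, and with 1 further symbol within 500 kb 19 were described. On day 1 the 10 Hoxb log2 differences from day 0 ran from 3.09 to 9.23. Those of the 19 neighbours ran from -1.56 to 1.68 with a median of 0.01. Of them 0 reached 4-fold in either direction. Of all symbols 2.22% were at least 4-fold higher, and the share at least 4-fold lower was not counted. Atp5g1 and Gm10039, both among the 19, overlap and had near-equal reads (1345 and 1346 on day 0). On day 2 against day 0 the Hoxb differences ran from 5.74 to 9.55 and those of the neighbours from -3.34 to 1.76. Ttll6, a tubulin glutamylase gene 28.9 kb from Hoxb13, differed by 0.65 on day 1 and 1.00 on day 2 against day 0. Calcoco2, an autophagy receptor gene 82.4 kb from Hoxb13, was higher on day 1 by 1.68 and fell over the course (slope -0.93 per day, limma adjusted p = 0.0306). On the Hoxb1 side the nearest 2 listed genes, Snx11 (399 kb) and Cbx1 (421 kb), differed by -0.07 and -0.06 on day 1. The slope test called 3 of the 19, Copz2 rising and Calcoco2 and Abi3 falling, where 2.58% of all symbols were called rising and 5.2% falling; Copz2 and Abi3 are named here after their values were seen.

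**Figure D5:**
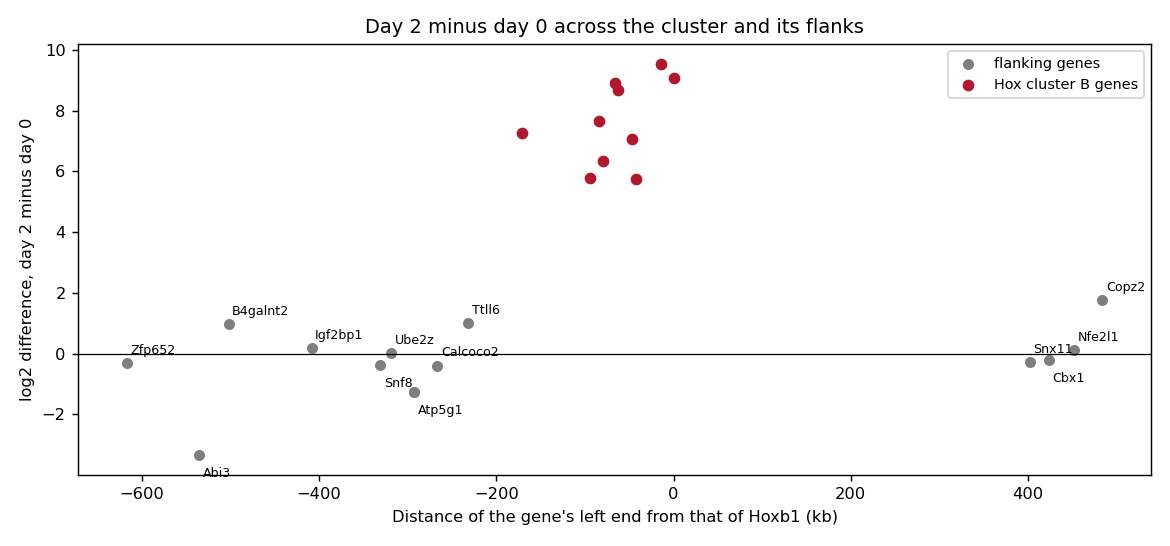
Log2 difference of day 2 minus day 0 (y axis) of the Hox cluster B genes (red) and of the neighbours within 500 kb (grey), by the distance of each gene's left end from that of Hoxb1 in kb (x axis). The Hoxb genes lie between 5.74 and 9.55, and the neighbours between -3.34 and 1.76.

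The other Hox clusters and the factors that act with or on Hoxb genes gave these values beside the cluster. The median log2 difference of day 1 minus day 0 was 7.18 for Hoxb, 5.86 for the 8 cluster A genes and 1.80 for the 8 genes of clusters C and D, which all share the day 0 library. On day 5 the median was 5.98 for Hoxb, 6.30 for cluster A and 6.53 for clusters C and D. Of these 16 other Hox genes 4 rose by the slope test (Hoxc9, Hoxc8, Hoxc6 and Hoxc5) and 0 fell, with a median slope of 0.78 against -0.07 over all symbols. Over days 0 to 5, 9 of them rose and 0 fell. Of all symbols the slope test called 2.58% rising and 5.2% falling over 7 libraries, and 25.9% and 22.1% over days 0 to 5.

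Of the TALE cofactors 8 of 9 were in the table. Over the 7 libraries 1 rose, Meis3 (slope 0.65, limma adjusted p = 0.044), and 0 fell, where 2.58% of symbols were called rising and 5.2% falling. Over days 0 to 5 it was 5 and 0, where 25.9% of symbols were called rising and 22.1% falling. Meis1, a DNA-binding partner of Hox proteins, had 213 reads on day 1, against 26 on day 0. Of the regulators known to act on Hoxb genes 12 of 16 were in the table, 0 rose and 1 fell, Gbx2 (slope -0.86, adjusted p = 0.0105), a gene of the midbrain-hindbrain boundary. Over days 0 to 5 it was 3 and 1, counts near or below the shares of 25.9% and 22.1%. The risers included the nuclear receptor genes Nr2f1 and Nr2f2, at 1675 and 2602 reads on day 5, against 3 and 2 reads on day 0. Cdx1, a caudal homeobox gene that activates Hox genes, had 14, 423, 38 and 7 reads on days 0 to 3, and was high on day 1 alone.

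Of the genes listed under retinoic acid catabolism and binding, a list that also holds Stra6 and Stra8, 8 of 9 were in the table. On day 1, 7 of them were at least 4-fold higher, where 2.22% of all symbols were. The slope test called 0 of them over 7 libraries and 2, both rising, over days 0 to 5, where 25.9% of symbols were called rising. Cyp26a1, which breaks down retinoic acid, had 3965 reads on day 1, against 14 on day 0. Of 17 Polycomb genes, all in the table, 2 rose, Cbx8 among them, and 2 fell, Jarid2 among them (slope -0.82, limma adjusted p = 0.0419). Of the Trithorax and demethylase genes 9 of 11 were in the table, 0 rose and 1 fell, Wdr5 (slope -0.46, adjusted p = 0.0184). Over the 7 libraries 2.58% of all symbols were called rising and 5.2% falling. Without day 6 the counts were 3 risers and 6 fallers for Polycomb and 0 and 4 for the Trithorax list, where 25.9% of all symbols were called rising and 22.1% falling. None of the Polycomb or Trithorax genes differed 4-fold on day 1, where 2.22% of all symbols were at least 4-fold higher. The share of all symbols at least 4-fold lower was not counted.

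Among the 5 genes outside the Hox clusters most like the mean Hoxb course over days 0 to 6, by Pearson r across 7 libraries, were Cyp26a1 (0.97), Zadh2 (0.96), Mmd (0.95) and Zfp703 (0.94), of 1004 symbols with a high enough mean and range. Over days 0 to 5 the 5 included Stra6 (0.997), Rgma (0.994) and Sall2 (0.993), of 202. Within the cluster, r of each gene with the mean of the others was 0.61 for Hoxb1, 0.79 for Hoxb13 and at least 0.95 for the other 8. These values include the step from day 0. Over days 1 to 5, r between pairs of those 8 genes ran from -0.01 (Hoxb4 with Hoxb3) to 0.99 (Hoxb8 with Hoxb6).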

How the data were processed

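RNA of 7 CCE libraries, 1 a day, was sequenced. The deposited values are log2 scaled reads per RefSeq transcript, with mm9 coordinates and transcript length, per the file headers; BWA 0.7.3 and mm9 are named in the submitters' processing notes. For the counting tool, the strand setting and the scaling, the sources used here give nothing. The deposited log2 values were turned back into whole reads from each library's step size; at or under 1000 reads, 100% of values were whole to a tolerance of 0.05 reads. A library's lowest value was taken as 1 read. The reads set the intervals (exact Poisson or Clopper-Pearson, 95%), which cover counting error only, and RPKM. The transcript with the highest mean stood for its symbol.

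Lines and curves on day were fitted to all 12071 symbols with limma 3.58.1 (trend, R 4.3.3), with Benjamini-Hochberg adjustment at 0.05. The line fit was checked on simulated data with 200 genes changed along straight lines. Courses that rise and then level or fall were not simulated. No filter on low values was used, because only 3 of the 10 genes had a mean above the 40th percentile. The length correction subtracted, per library, a lowess curve (span 0.3) on log length. Tables and figures used Python 3.11.15 and pandas 2.3.3. The members and the gene lists were chosen with earlier results of these data known. Every Hoxb gene is named; of each gene list up to 4 with the steepest slopes could be named, of neighbours the nearest 2 on each side, and of like genes the top 5 with a range of at least 4 log2 units. Alternatives were the filter, median centring, quantile normalization, the length correction, 5 reads added, doubled folds and each library left out. A few genes that these rules select are not reported here.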

Additional observations from a re-analysis of the deposited data

How the results depend on the processing

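The count of Hoxb genes called by the slope stayed at 0 under every other alternative but was 1, Hoxb1, without day 0, so the values without 1 day ran from 0 to 1. It was also 1 in the fits chosen after seeing the data (without days 0 and 6, and without day 0 with the length correction or with 5 reads added). The count of genes with a line or curve was 4, and 1 with the filter on low values, which left 3 genes to test. Without 1 day it ran from 0 (without day 4) to 7 (without day 5), and it was 1 in each fit chosen after seeing the data. With doubled folds, 1 gene was higher on day 2 than on day 1, and 2 were lower on day 3 than on day 2. On day 4 or day 5 0 were lower than the day before, and 2 were lower on day 6 than on day 5. The shares of all symbols past the doubled folds were not counted, so whether these counts are unusual cannot be told. With median centring or quantile normalization, 2 were lower on day 4. For day 6 against day 5, 5 genes were higher under both, and 1 (median centring) or 0 (quantile) lower. With the length correction 2 were lower. The shares of all symbols were not counted under these scalings. The day 2 ratio of highest to lowest gene was 14.9 with reads not divided by length.

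Without day 0 the slopes of Hoxb9, Hoxb8, Hoxb6, Hoxb5, Hoxb4 and Hoxb3 were negative and those of Hoxb13, Hoxb7 and Hoxb2 were not. Over all fits that leave out days, with or without the length correction or added reads, they ran from -0.10 to 0.74 in Hoxb9, -0.42 to 0.66 in Hoxb8, -0.037 to 0.90 in Hoxb7, -0.41 to 1.05 in Hoxb6, -0.26 to 1.03 in Hoxb5, -0.28 to 0.95 in Hoxb4, -0.15 to 0.82 in Hoxb3 and -0.20 to 1.31 in Hoxb2, none of them called, and stayed positive in Hoxb13. The count at least 4-fold above day 0 was 9 in place of 10 on days 1 and 5 with quantile normalization or 5 reads added. The cause of these changes was not tested. No paired analysis was possible because each day has 1 library.

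There is 1 library a day, so spread between cultures was not measured, and a day and its library cannot be told apart. Genes with 1 or 2 reads on day 0 have no firm size of increase.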
